A study of Sus scrofa with 6 samples.

Results

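The CD3 chains CD3D, CD3E, CD3G and CD247 (CD3 zeta) and the kinase LCK were followed by name through lymph node, spleen and thymus of RAG2 biallelic knockout pigs and wild-type littermates. All 5 genes were found in every table, among 4122 listed genes. The T-cell receptor binds antigen through clonal chains that cannot signal on their own. CD3E pairs with CD3D and with CD3G, CD247 pairs with itself, and these dimers carry the tyrosine motifs (ITAMs) that signal for the receptor. LCK, a kinase of the Src family held by the CD4 and CD8 coreceptors, phosphorylates those motifs. RAG2 and its partner RAG1 cut the DNA that is joined to make the clonal chains. The CD3 genes are not rearranged, and in mice immature thymocytes transcribe them before the clonal chains are complete.

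The design holds 6 groups of 1 library each: wild-type lymph node, spleen and thymus and RAG2-KO lymph node, spleen and thymus, all from pigs at 3 months of age. The labels name the genotype as RAG2 Knockout, and the series title speaks of extended-survival SCID pigs with a single amino acid deleted. The labels do not say which libraries came from the same animal. No difference therefore has a replicate check, no statistical test was made, and the intervals below cover counting error alone.

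Values are FPKM, fragments scaled to transcript length and library size, which allow levels of different genes to be set side by side. Fragments assigned to listed genes ranged from 1922563 to 2541724 per library. A gene counted as measured with at least 1 FPKM in 1 of the libraries compared, and was called lower or higher at a log2 ratio (knockout to wild type, 1 FPKM added to both) of at least 1 in size. RAG2 itself reached 606 FPKM in the wild-type thymus and 1072 FPKM in the RAG2-KO thymus and at no more than 1.16 FPKM elsewhere, so its transcript does not check the genotype labels. The thymic epithelial chemokine CCL25 stood at 1423 and 414 FPKM in the wild-type and knockout libraries labelled thymus and at no more than 1.04 FPKM in the other libraries. In lymph node and spleen the B-cell marker MS4A1 had 356 and 135 FPKM in the wild-type libraries against 0.887 and 0.257 FPKM in the RAG2-KO libraries.

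CD3D, CD3E and CD3G lie next to one another on chromosome 9 of Sscrofa11.1. CD3E spans 45619730 to 45633972, CD3D 45640475 to 45644153 and CD3G 45645243 to 45656779. The gap between CD3E and CD3D is 6502 bases and that between CD3D and CD3G is 1089 bases. CD247 lies on chromosome 4, 83494266 to 83586887, and LCK on chromosome 6, 88719886 to 88745922. No other annotated RefSeq gene of this build overlaps any of the 5.

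In the wild-type libraries the 5 genes kept nearly the same order in all tissues, with CD247 highest, CD3E next and LCK lowest. CD3E stood at 292 FPKM in lymph node, 155 FPKM in spleen and 1685 FPKM in thymus. CD3D stood at 238, 83.7 and 1037 FPKM in the same tissues. CD3G, close to CD3D throughout, stood at 248, 81.6 and 1142 FPKM. These 3 chains were highest in thymus and lowest in spleen. CD247 was at 325, 188 and 2144 FPKM in lymph node, spleen and thymus. LCK was at 160.0, 67.0 and 940.0 FPKM. The highest of the 5 exceeded the lowest by 2.03-fold in lymph node, 2.81-fold in spleen and 2.28-fold in thymus. Thymus exceeded lymph node by 4.36-fold for CD3D to 6.61-fold for CD247, and exceeded spleen by 10.9-fold for CD3E to 14.03-fold for LCK. Each tissue has a table normalised separately, so these ratios between tissues are a description.

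**Figure D1:**
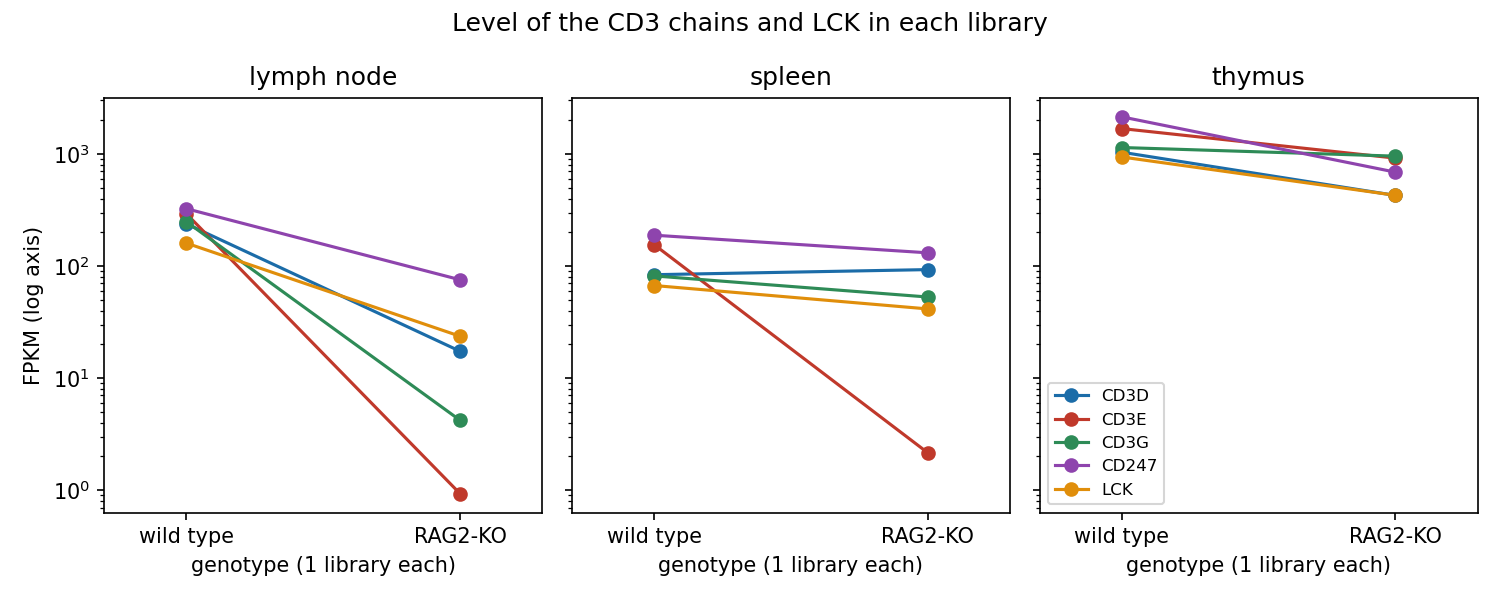
FPKM (log axis) of CD3D, CD3E, CD3G, CD247 and LCK in the wild-type and RAG2-KO library of each tissue, 1 point per library, with lines joining the same gene. CD3E drops to 0.929 FPKM in knockout lymph node and 2.16 FPKM in knockout spleen while the lines of the other genes end higher, and in thymus all 5 genes stay above 400 FPKM.

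In the knockout lymph node and spleen this shared order was lost, and CD3E was the lowest of the 5 genes in both. CD3E stood at 0.929 FPKM (3 fragments) in knockout lymph node, 2.16 FPKM (8 fragments) in knockout spleen and 918 FPKM (3030 fragments) in knockout thymus. CD3D stood at 17.3, 92.9 and 427 FPKM in the same tissues, from 31, 191 and 774 fragments. CD3G stood at 4.20, 52.9 and 956 FPKM, from 8, 116 and 1852 fragments. CD3D and CD3G were thus detected in knockout spleen at more than 20 times the FPKM of their dimer partner CD3E. CD247 stood at 75.4, 131 and 688 FPKM in the knockout lymph node, spleen and thymus. LCK stood at 23.6, 41.4 and 428 FPKM. CD247 was the highest of the 5 in knockout lymph node and spleen, whereas CD3G was highest and CD3D lowest in knockout thymus. The highest gene exceeded the lowest by 81.1-fold, 60.9-fold and 2.24-fold in the 3 knockout libraries.

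In lymph node all 5 genes were lower in the knockout, against 10.3% of 2910 measured genes called lower and 15.3% called higher. With a counting interval below equal levels also required, the 5 were still called, against 8.87% of measured genes. CD3E was 313-fold lower (95% Clopper-Pearson interval 107 to 1518), with 897 fragments in wild type and 3 in the knockout, and only 5 measured genes had a lower log2 ratio. CD3G was 58.5-fold lower (29.5 to 136) and CD3D 13.6-fold lower (9.40 to 20.2). LCK was 6.75-fold lower (5.64 to 8.13) and CD247 4.29-fold lower (3.79 to 4.86). The intervals of CD3E and CD3G, with few knockout fragments, overlap in part, and those of CD3D, LCK and CD247 overlap neither these nor one another. In a bulk tissue, fewer cells of a type and less RNA per cell cannot be told apart. In the same knockout library the fat-cell gene list, in which 6 of 6 measured genes were higher, summed to 8864 FPKM, against 132 FPKM in the wild-type library, and the red-cell gene HBB stood at 6738 against 376 FPKM. Their part in the lower T-cell receptor genes was not tested.

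In spleen 1 of the 5 genes was called lower, CD3E, against 10.04% of 2849 measured genes called lower (8.42% with the interval also required) and 8.88% called higher. CD3E, with 489 and 8 fragments, was 71.4-fold lower (35.9 to 166), and 7 measured genes had a lower log2 ratio. CD3D, its neighbour and partner, had a knockout over wild-type ratio of 1.13 with an interval of 0.904 to 1.41 that includes equal levels. The ratio was 0.658 (0.512 to 0.844) for CD3G, 0.701 (0.630 to 0.780) for CD247 and 0.621 (0.531 to 0.726) for LCK. These 3 ratios lie below 1 beyond counting error and above the size needed for a call. The intervals of CD3G, CD247 and LCK overlap one another, and none comes near that of CD3E.

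In thymus 3 of the 5 genes were called lower, against 10.9% of 2908 measured genes called lower (8.53% with the interval also required) and 15.2% called higher. CD247 was 3.12-fold lower (2.99 to 3.25) and CD3D 2.43-fold lower (2.23 to 2.65). LCK had a knockout over wild-type ratio of 0.455 (0.434 to 0.477). CD3E had a knockout over wild-type ratio of 0.545 (0.521 to 0.570), a log2 ratio of -0.88 that falls just short of a call. CD3G had a ratio of 0.837 (0.787 to 0.891) and a log2 ratio of -0.26. CD3G was therefore the least different of the 5 in thymus and CD247 the most, which is another order than in lymph node and spleen. Of the 5 intervals, those of CD3D and LCK overlap and the others do not. In the same knockout library macrophage genes summed to 2668 against 1065 FPKM in wild type (7 of 9 higher, 1 lower), fat-cell genes to 1730 against 464 FPKM (4 of 5 higher) and thymic epithelial genes to 1187 against 2513 FPKM (1 of 4 lower). HBB stood at 4782 against 912 FPKM. Their part in the thymus ratios was not tested. The median log2 ratio of the 5 was -3.70 in lymph node, -0.62 in spleen and -1.13 in thymus, beside -0.00456, -0.0159 and -4.72e-05 over all measured genes.

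**Figure D2:**
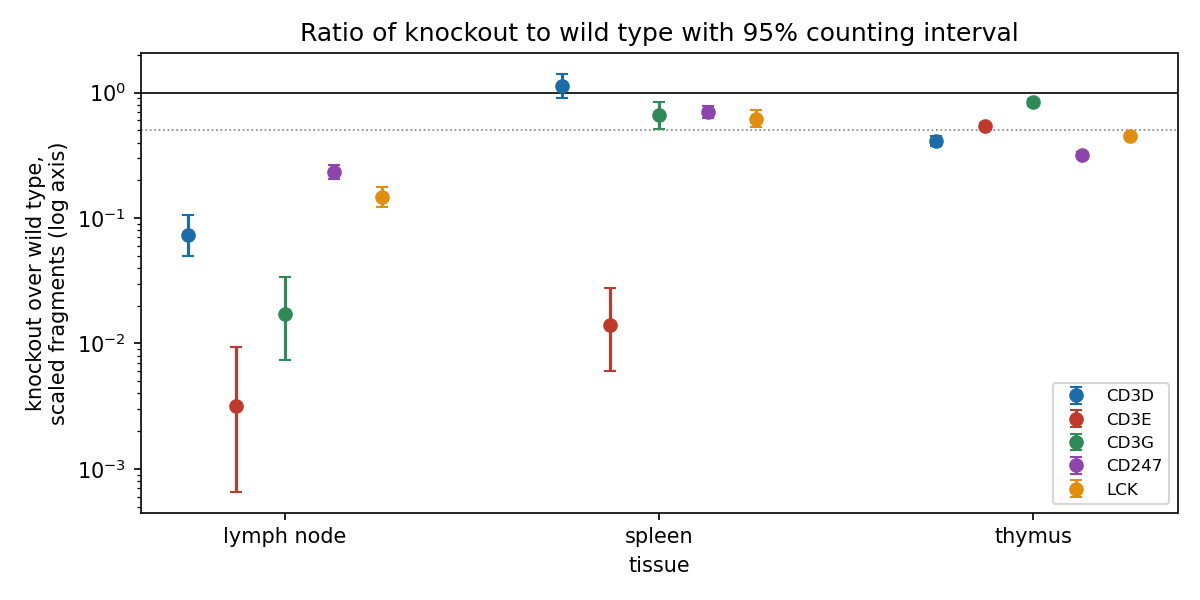
Ratio of knockout over wild type in scaled fragments (log axis) for each gene and tissue, 1 library against 1, with bars for the 95% Clopper-Pearson interval, a solid line at equal levels and a dotted line at 0.5. CD3E lies far below the other 4 in spleen, where CD3D sits at 1.13, and in thymus all ratios lie between 0.321 and 0.837.

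Ratios between chains within a library do not depend on how the libraries were scaled. In wild type, CD3D over CD3E was 0.814 in lymph node (0.722 to 0.916), 0.539 in spleen (0.445 to 0.650) and 0.615 in thymus (0.583 to 0.649). In the knockout it was 18.7 in lymph node (5.83 to 95.5), 43.1 in spleen (21.4 to 101) and 0.465 in thymus (0.429 to 0.503). The ratio was thus 22.9 times that of wild type in lymph node (exact conditional interval of the fragment counts 7.11 to 118), 80.0 times in spleen (38.6 to 193) and 0.755 times in thymus (0.686 to 0.831). Beyond counting error, this ratio differed from that of wild type in all 3 tissues, upward in both peripheral organs and downward in thymus. Across the 3 wild-type tissues the ratio itself varied by 1.51-fold, which is more than its displacement in thymus. With 1 library per group, the thymus displacement has no replicate check.

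CD3G, the other partner of CD3E, had a wild-type ratio to CD3E of 0.850 in lymph node, 0.526 in spleen and 0.678 in thymus. The knockout ratios were 4.52, 24.5 and 1.04. Relative to wild type this ratio was 5.32 times as high in lymph node (1.27 to 31.4), 46.7 times in spleen (22.2 to 113) and 1.54 times in thymus (1.42 to 1.66). It is the only 1 of the 10 pairs among the 5 genes whose ratio was displaced the same way, beyond counting error, in all tissues. The knockout lymph node ratio rests on 8 CD3G and 3 CD3E fragments. The thymus displacement is smaller than the 1.62-fold variation of CD3G over CD3E across the 3 wild-type tissues.

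CD3D and CD3G, which each pair with CD3E, were nearly equal in wild type, with CD3G over CD3D at 1.04 in lymph node, 0.975 in spleen and 1.10 in thymus. In the knockout CD3G over CD3D was 0.242 in lymph node, 0.569 in spleen and 2.24 in thymus. Relative to wild type the ratio was 0.232 in lymph node (0.0910 to 0.523), 0.584 in spleen (0.416 to 0.817) and 2.03 in thymus (1.83 to 2.26). CD3D was the more abundant of the pair in the knockout peripheral organs, and CD3G in the knockout thymus.

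CD247 over CD3E was 1.11, 1.21 and 1.27 in the wild-type lymph node, spleen and thymus. In the knockout it was 81.1 (27.5 to 396), 60.9 (30.7 to 142) and 0.750 (0.712 to 0.789). CD247 passed from the highest chain in wild-type thymus to a level below CD3G and CD3E in the knockout thymus. As a share of the summed FPKM of the 4 CD3 chains, CD247 made up 29.4% in wild-type and 77.0% in knockout lymph node. The share was 37.0% and 47.0% in spleen and 35.7% and 23.0% in thymus. CD3E made up 26.5, 30.5 and 28.0% in the wild-type lymph node, spleen and thymus and 0.949, 0.772 and 30.7% in the knockout.

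Between wild type and knockout, LCK followed CD247 more closely than CD3E in lymph node and spleen. In thymus it followed CD3E more closely than CD247. CD247 over LCK was 2.03 in lymph node, 2.81 in spleen and 2.28 in thymus of the wild type, and 3.19, 3.17 and 1.61 in the knockout. The knockout over wild-type ratio of this pair was 1.57 in lymph node (1.26 to 1.97), 1.13 in spleen (0.933 to 1.37) and 0.705 in thymus (0.662 to 0.751). LCK over CD3E was 0.548, 0.432 and 0.558 in wild type and 25.4, 19.2 and 0.466 in the knockout. Relative to wild type it was 46.4 times as high in lymph node (15.4 to 228) and 44.5 times in spleen (21.8 to 105). These 2 values rest on 3 and 8 CD3E fragments in the knockout. In thymus it was 0.835 times that of wild type (0.783 to 0.891). Across the 3 wild-type tissues LCK over CD3E varied by 1.29-fold and CD247 over LCK by 1.39-fold.

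Across the 3 wild-type tissues the 10 pair ratios varied by 1.13-fold for CD3D over CD3G to 1.76-fold for CD3G over CD247. Across the 3 knockout tissues they varied by 1.98-fold for CD247 over LCK to 108-fold for CD3E over CD247. Every pair varied more across the knockout tissues than across the wild-type tissues, in 1 library per tissue.

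**Figure D3:**
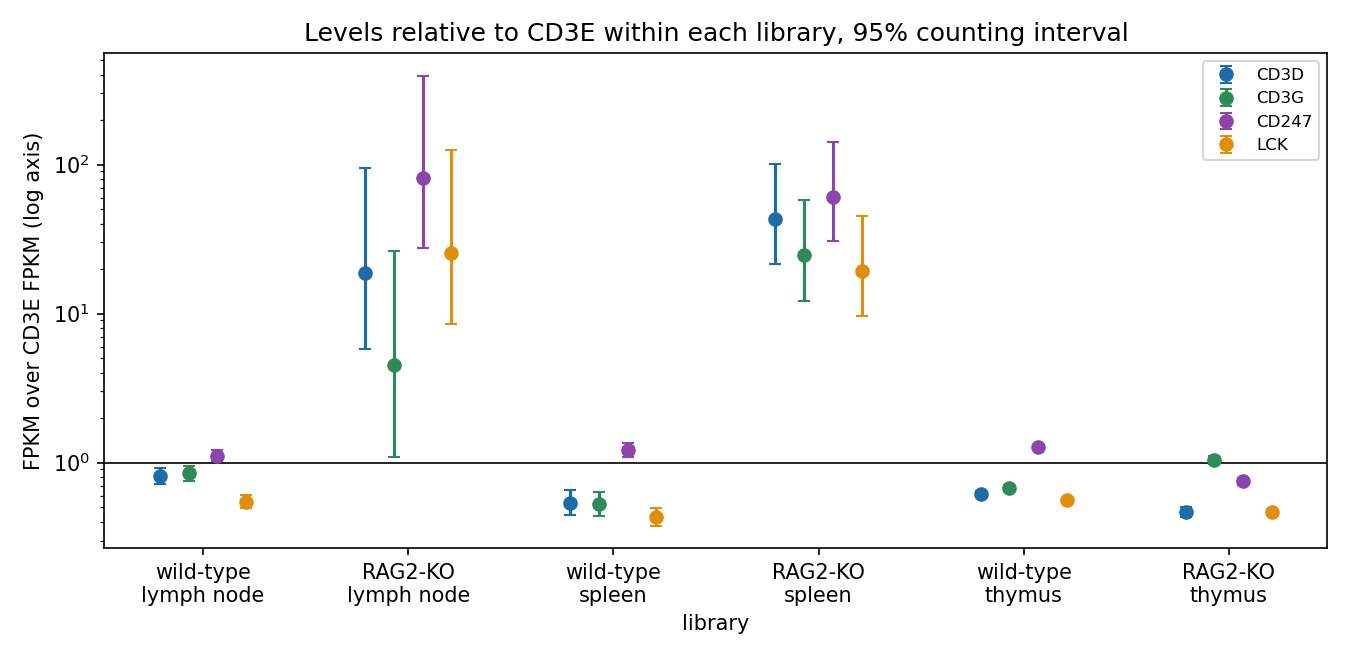
FPKM of CD3D, CD3G, CD247 and LCK divided by the FPKM of CD3E in the same library (log axis) for all 6 libraries, with bars for 95% counting intervals and a line at equal levels. The wild-type points lie between 0.432 and 1.27, the knockout lymph node and spleen points between 4.52 and 81.1, and the knockout thymus points between 0.465 and 1.04.

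The order of tissues also differed between genotypes. In wild type all 5 genes were higher in lymph node than in spleen, by 1.72-fold for CD247 to 3.04-fold for CD3G. In the knockout all 5 were lower in lymph node than in spleen, with FPKM ratios of 0.0793 for CD3G, 0.187 for CD3D, 0.431 for CD3E, 0.570 for LCK and 0.574 for CD247. That of CD3E compares only 3 with 8 fragments. No counting interval was made for ratios between tissues, whose tables were normalised separately. Knockout thymus exceeded knockout spleen by 4.59-fold for CD3D, 5.25-fold for CD247, 10.3-fold for LCK, 18.1-fold for CD3G and 426-fold for CD3E. CD3E was thus the gene that set the knockout thymus furthest apart from knockout spleen.

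Of 52 genes listed for T-cell receptor signalling, 18 were in the tables and all were measured. In lymph node 5 were lower and 2 higher, beside 10.3% and 15.3% of all measured genes. In spleen 1 was lower and 1 higher, beside 10.04% and 8.88%, and in thymus 4 were lower and none higher, beside 10.9% and 15.2%. The spleen counts are no larger than these shares of 18 genes. The list's median log2 ratio was -0.36, -0.0595 and 0.0759 in these tissues. CD5, a surface protein that dampens receptor signals, was the gene called lower in all 3 tissues, at 167 and 11.2 FPKM in lymph node, 35.8 and 6.71 FPKM in spleen and 378 and 68.2 FPKM in thymus. In lymph node the small GTPase RHOH (log2 ratio -1.95) and the ITAM-binding kinase SYK (-1.51) were also lower, and the early-response transcription factor FOS (2.82) was higher. In thymus the LCK relative FYN (-1.19), the transcription factor NFATC2 (-1.20) and the NF-kappa-B inhibitor NFKBIA (-1.08) were lower.

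FYN was the single other Src-family kinase in the tables of 8 listed. FYN stood at 153 and 145 FPKM in lymph node, 93.7 and 157 FPKM in spleen and 179 and 77.9 FPKM in thymus, wild type first. FYN exceeded LCK in the knockout lymph node and in both spleen libraries, and LCK exceeded FYN in the other libraries. Of the antigen receptor chains only PTCRA, the surrogate alpha chain of the pre-T-cell receptor, was in the tables, and it was measured in thymus alone. PTCRA was at 611 FPKM in the knockout thymus against 302 FPKM in that of the wild type, opposite in direction to the CD3 chains it signals through.

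Of 5 other ITAM or adaptor chains, which serve other receptors, 2 were lower in lymph node, 3 were lower in spleen and 2 were higher in thymus. Beside these stand 10.3% of all measured genes called lower in lymph node, 10.04% lower in spleen and 15.2% higher in thymus. The B-cell receptor chains CD79A and CD79B were lower in lymph node (log2 ratios -6.64 and -8.56), as the CD3 chains were, and in spleen (-5.25 and -5.23), beside -5.63 for CD3E. FCER1G and TYROBP, which serve Fc and natural killer receptors of innate cells, were not called in lymph node or spleen and were higher in thymus, from 72.3 to 332 FPKM and from 116 to 375 FPKM. HCST, the partner of KLRK1, was lower in spleen, at 32.9 and 9.10 FPKM (27 and 9 fragments).

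Marker lists of cells that could carry these transcripts are given by their counts, to be read beside the shares of all measured genes called lower (10.3% in lymph node, 10.04% in spleen, 10.9% in thymus) and higher (15.3%, 8.88% and 15.2%). Of 15 measured alpha-beta T-cell genes in lymph node 13 were lower, of 14 in spleen 12 were lower, and of 15 in thymus 11 were lower and 1 was higher. Their median log2 ratios were -3.32, -1.75 and -2.45, and the lymph node median was -3.14 with CTLA4, at 0 in the knockout, placed at its bound against 3 fragments. The summed FPKM of this list went from 2134 to 494 in lymph node, from 516 to 215 in spleen and from 6168 to 2588 in thymus. In thymus CD8A (-5.43), CD28 (-4.79), CD8B (-4.73) and CCR7 (-4.43) differed most by log2 ratio, each by far more than any CD3 chain. CD8A had 11.4 FPKM in the knockout thymus against 534 FPKM in that of the wild type. BCL11B, a T-lineage transcription factor, was at 235 and 205 FPKM in the knockout and wild-type thymus.

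Natural killer and cytotoxic genes were called higher for 3 of 8 measured in lymph node, for 5 of 9 in the spleen and for 4 of 8 in the thymus, beside 15.3%, 8.88% and 15.2% of all measured genes. None was lower in lymph node and 1 was lower in each of the other tissues. The list summed to 236 and 723 FPKM in wild-type and knockout lymph node, 409 and 1608 FPKM in spleen and 164 and 233 FPKM in thymus. NKL, an antimicrobial protein of cytotoxic granules, stood at 13.1 and 299 FPKM in lymph node and 87.5 and 909 FPKM in spleen. NKG7, another granule protein, stood at 45.6 and 103 FPKM in lymph node and 84.9 and 228 FPKM in spleen. NCR1, GZMH and FCGR3B were listed at 0 in all 6 libraries. Neutrophil genes were called higher for 4 of 6 measured in lymph node, for 7 of 7 in the spleen and for 6 of 7 in the thymus, and MMP9, a secreted protease, was lower in lymph node (30.6 and 2.92 FPKM). B-cell genes were called lower for 6 of 6, 6 of 6 and 4 of 6. Of the innate lymphoid genes 2 of 8 were higher and 2 lower in lymph node, 5 of 8 were lower in spleen, and 4 of 8 were lower and 1 higher in thymus. CD247 and LCK are known in human natural killer cells as well as T cells. The part of these cells in the remaining CD3D, CD3G, CD247 and LCK was not tested.

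**Figure D4:**
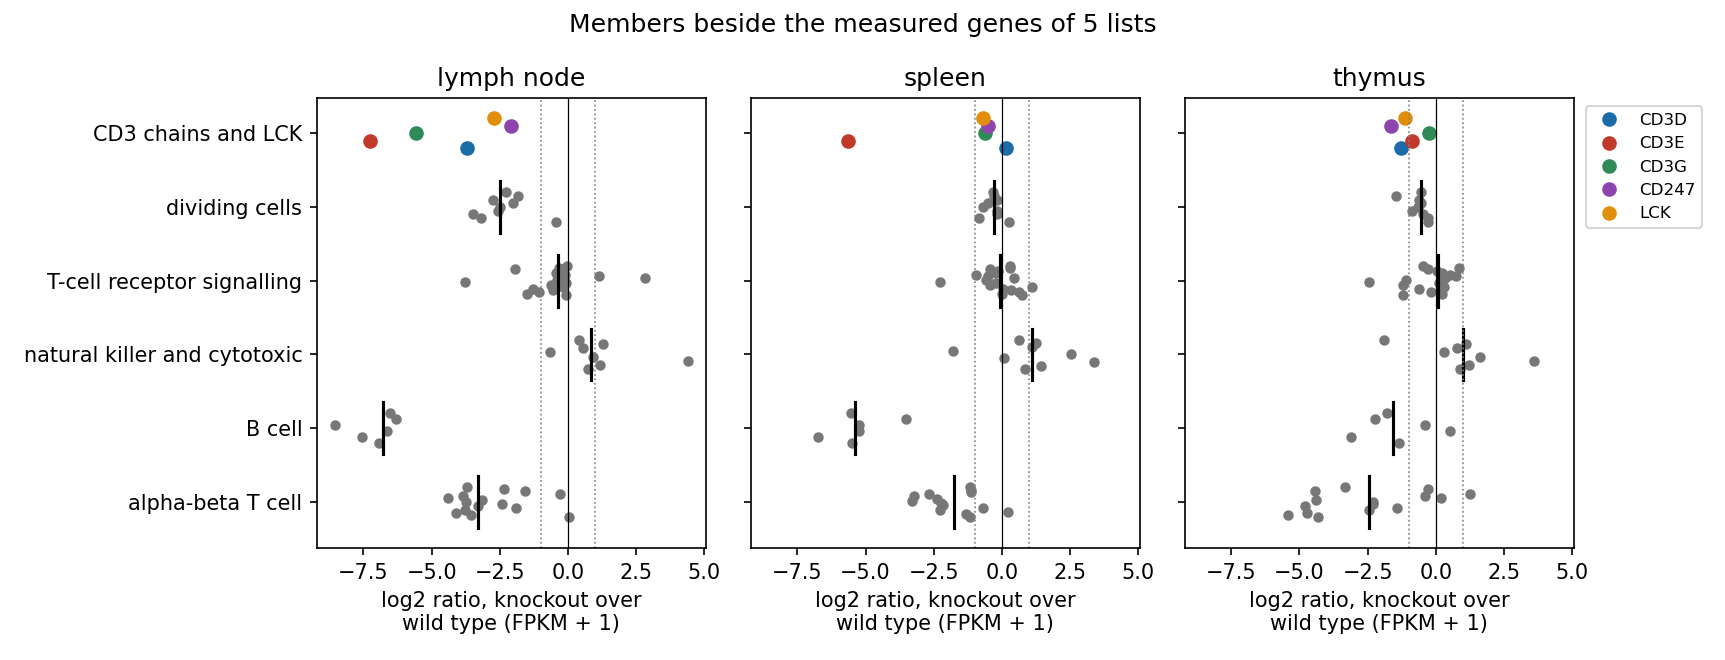
Log2 ratio of knockout over wild type, with 1 FPKM added to each value, for the 5 genes (coloured) and for the measured genes of 5 lists (grey points, with a black bar at each median) in each tissue; dotted lines mark the size needed for a call. In spleen CD3E (-5.63) lies among the B-cell genes and apart from CD3D, CD3G, CD247 and LCK, which lie between -0.68 and 0.15.

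Of 9 measured genes of dividing cells 8 were lower in lymph node, none was called in spleen and 1, the replication clamp PCNA, was lower in thymus, beside 10.3%, 10.04% and 10.9% of all measured genes. Their median log2 ratios were -2.49, -0.30 and -0.54, and the gene not called in lymph node was MKI67 (-0.45). Likeness was measured as the root-mean-square difference of log2(FPKM + 1), each gene centred on its own mean over the 6 libraries. Among the genes closest to CD247 were PCNA (0.27), LCK (0.35), the cyclin CCNA2 (0.35) and FAM54A (0.35). For LCK the closest genes were CCNB2 (0.27), CCNB1 (0.33), CD247 (0.35), the mitotic kinase AURKB (0.36) and the chromatin protein HMGB2 (0.37). For CD3D they were the motor protein KIF22 (0.31), CCNB1 (0.36), the histone chaperone ASF1B (0.37), CDK1 (0.41) and FAM54A (0.45). PCNA, for instance, stood at 282 and 79.0 FPKM in lymph node, 197 and 160 FPKM in spleen and 1484 and 545 FPKM in thymus.

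CD3G and CD3E had less similar company. For CD3G the closest were LOC100514810 (0.56), C1H9orf100 (0.60), the histone gene HIST1H3E (0.72), the topoisomerase TOPOII (0.73) and CDK1 (0.77). For CD3E they were DAPL1 (1.22), the T-lineage transcription factors BCL11B (1.37) and LEF1 (1.46), E4 (1.49) and the B-cell receptor chain CD79A (1.71). CD3E and CD3D differed by 2.33 on this scale, CD3E and CD3G by 1.71, CD3D and CD3G by 0.92 and CD247 and LCK by 0.35. The 6 libraries share tables and scaling within each tissue, and these distances are a description. Ranked by Pearson correlation instead, 2 of the 5 closest genes were shared for CD3D, 0 for CD3E, 4 for CD3G, 1 for CD247 and 0 for LCK.

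Of the genes within 3 places of a member on its chromosome, 7 others were in the tables. UBE4A, a ubiquitin ligase gene that begins 4310 bases beyond CD3G, stood at 99.5 and 117 FPKM in lymph node, 106 and 102 FPKM in spleen and 128 and 130 FPKM in thymus. MPZL2, an adhesion gene on the CD3E side, was at 1.49 and 0.889 FPKM in lymph node, 1.63 and 0.155 FPKM in spleen and 49.9 and 100.2 FPKM in thymus, with log2 ratios of -0.40, -1.19 and 0.99. ATP5L, beyond UBE4A, had log2 ratios of -0.84, -0.26 and -0.67 in lymph node, spleen and thymus, and JAML, on the CD3E side, had -0.22, -0.09 and -1.37. Of the neighbours of CD247, RCSD1 had log2 ratios of -1.27, -0.02 and -0.92, with the tissues in the same order as for CD247 (-2.09, -0.52 and -1.64), and POU2F1 had -0.00525, -0.63 and -0.00473. EIF3I, near LCK, had -0.49, 0.76 and -0.95. The neighbours called lower were thus RCSD1 in lymph node, MPZL2 in spleen and JAML in thymus, beside 10.3%, 10.04% and 10.9% of all measured genes. For 7 neighbours these calls are near those shares, and MPZL2 in spleen lies near the minimum of 1 FPKM.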

How the data were processed

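RNA sequencing of total RNA was deposited for 6 libraries as 3 count tables and 3 FPKM tables. FPKM values were deposited by the authors in a separate table for each tissue, with the unit given by the table's name. The deposited count tables hold estimated counts made by the authors that carry 1 factor per library, read from the values: 98.7 to 99.3% were whole within 0.02 after division by a step of 0.925 to 1.08. Dividing each count by the step and rounding gave fragments. Per the submitters' processing notes, FastQC 0.11.9, Trimmomatic 0.39, STAR 2.7.9a, Cufflinks 2.2.1 and build Sscrofa11.1 were used. For annotation, strand setting and shared fragments the choice is not given in the sources used here. Per the labels' protocols, library preparation kept strand and started from total RNA. The tables list part of the genes, so totals are not library depth.

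Folds are ratios of fragments multiplied by the step of their library, which restores the deposited counts, with 95% Clopper-Pearson intervals. Changes of a chain ratio have exact conditional intervals of the odds ratio. All intervals cover counting error only, since fragments without molecular identifiers are not independent molecules. A fold against 0 fragments uses a floor of 3 fragments per library. A fit of genotype across tissues was not made, since tissues are not replicates of a genotype and may come from the same animals. The calculations were tested on simulated counts. Gene lists were matched by symbol or RefSeq synonym (Sscrofa11.1), from which coordinates, counted from 1, also come. Named genes are the 5 members, up to 4 called genes per list and tissue with the largest log2 ratio and at least 10 fragments in 1 library, defining markers, chromosomal neighbours and the 5 genes most alike to each member among those with at least 5 FPKM in 1 library. A gene that this rule names is not reported here. The members and lists were chosen with earlier results of these data known. Alternatives included edgeR 4.0.16 TMM factors, DESeq2 1.42.0 size factors, other pseudocounts, minimums and thresholds. Python 3.11.15, numpy 2.4.6, pandas 2.3.3, scipy 1.17.1, matplotlib 3.10.9 and R 4.3.3 were used.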

Additional observations from a re-analysis of the deposited data

Results flagged for a closer look

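CD3D was lower in the knockout lymph node and slightly higher, within counting error, in the knockout spleen, so its log2 ratio differed by 3.85 between those tissues. Of the 10 pairs among the 5 genes, 9 had a ratio that moved one way in a tissue and the opposite way in another, beyond counting error in both. The differences between tissues are given on the log2 scale and were not tested, with 1 library per tissue and genotype. Between spleen and lymph node CD3D over CD247 differed by 2.34 and CD3D over LCK by 1.86, both ratios being displaced upward in spleen and downward in lymph node. Between thymus and a peripheral organ CD3D over CD3E differed by 6.73, CD3D over CD3G by 3.13, CD3E over CD247 by 6.95 and CD3E over LCK by 5.80. CD3G over CD247 differed by 5.16, CD3G over LCK by 4.01 and CD247 over LCK by 1.16.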

How the results depend on the processing

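A fit of genotype with tissue as a block was not made, since tissues are not replicates of a genotype. The number of the 5 genes called lower was 5 in lymph node, 1 in spleen and 3 in thymus under each alternative, except that none was called in thymus with a size threshold of 2, by that threshold's own construction. These alternatives were counts scaled to their total, TMM or DESeq2 factors, pseudocounts of 0.1 and 5 FPKM, centring, the counting interval, no minimum, 5 FPKM and 10 fragments, the last chosen after seeing the data. No scaling or pseudocount changed the sign or the call of any of the 15 log2 ratios, and the shifts reached 1.60 toward 0 with a pseudocount of 5, for CD3E in lymph node. Some shifts left the counting intervals. With counts scaled to their total, CD3E, CD3G, CD247 and LCK did so in thymus. There CD3G went from -0.26 to -0.14 and LCK from -1.13 to -1.02, close to the size needed for a call. With a pseudocount of 5, CD3E in lymph node and spleen and CD3G in lymph node did so. CD3D over CD3E kept its direction in 3 of 3 tissues with fragments in place of FPKM or with 1 FPKM added. Over all genes, a pseudocount of 5 reduced the genes called lower from 286 to 160 in spleen and from 317 to 183 in thymus, and those called higher from 253 to 166 and from 441 to 272. A threshold of 2 left 112 lower and 163 higher in lymph node, 76 and 79 in spleen and 105 and 110 in thymus. CD3E in knockout lymph node and spleen rests on 3 and 8 fragments, and CD3G in knockout lymph node on 8, which limits the precision of ratios that use them.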
